A study of Homo sapiens with 12 samples.

Results

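The death receptors and the proteins that act directly at their death-inducing complex were followed as a set of 10 genes: the receptors FAS, TNFRSF1A, TNFRSF10A, TNFRSF10B and TNFRSF21, the decoy receptor TNFRSF10D, the ligand TNFSF10, the adaptor FADD, the initiator caspase CASP8 and its inhibitor CFLAR. They were chosen by name, as every probe set annotated to exactly 1 of these symbols, which gave 38 probe sets of 54675 on the array. Each gene was read at its probe set with the highest mean over the 12 arrays, called its brightest probe set here, and the other probe sets served as a check. Of the 10 genes, among 19775 on the array, 9 reached log2 4 on at least 3 arrays and were tested with 13130 genes in all.

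Death receptors are members of the tumour necrosis factor receptor family that carry a death domain on the inner side of the membrane. On binding a ligand such as FAS ligand or TRAIL they recruit FADD, which in turn gathers procaspase-8, and the caspase cleaves itself free and starts apoptosis. CFLAR (c-FLIP) resembles caspase-8 without its catalytic activity and takes its place in the complex, and decoy receptors bind TRAIL without passing on a full signal. In liver, this pathway is known for hepatocyte death in steatosis and for the killing of tumour cells by TRAIL.

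Sk-hep1 is an established human line taken from the ascites of a liver adenocarcinoma, which the labels class as endothelial. The cells were grown in DMEM with serum and then incubated in growth medium (GM, DMEM-based) or high-fat medium (HFM, DMEM/F12-based). RNA was taken at 12 or 24 hours, with 3 arrays for each of the 4 groups. The basal medium therefore differed along with the fat, and the sources used here do not name that fat. The design asks what a high-fat environment does to gene expression in these cells. Nothing in the labels ties the replicates to separate cultures, so the p-values are set against the spread of these arrays only, and that spread may be technical. In bulk RNA, fewer cells of a type and less RNA per cell cannot be told apart.

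Values are log2 levels that the authors made with GCRMA, and the number of arrays limits their precision. Array medians lay between 4.05 and 4.09, and no arrays were identical. Of 10 endothelial markers 5 passed the same filter, whereas CDH5, VWF and KDR had group means of at most 3.23. Among those that passed, ENG had group means between 7.16 and 7.69, and PECAM1, between 4.01 and 4.45, lay near the filter. Of the markers of other cells, 4 of 7 hepatocyte, 3 of 9 leukocyte, 4 of 8 epithelial and 6 of 7 mesenchymal ones passed. Albumin, PTPRC and EPCAM had group means of at most 2.75, whereas the keratins KRT8, KRT18 and KRT19 lay between 10.74 and 13.71, the leukocyte marker CD79A between 5.91 and 6.31 and the hepatocyte marker TTR between 5.31 and 5.69. The 3′ minus 5′ difference of ACTB, a sign of RNA degradation or labelling length, at 24 hours averaged 1.58 ± 0.06 (SD, n = 3) in HFM against 1.07 ± 0.05 in GM, the smallest p that 3 against 3 arrays allow (exact two-sided permutation test, p = 0.1). The hybridisation controls averaged 9.81 to 9.88 on the 3 GM arrays of 12 hours and HFM 12-hour replicate 1, and 9.41 to 9.65 on the other 8 arrays. These sets of arrays are called the high and the low hybridisation control class here.

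Proximal promoters are shown for 4 genes whose proteins meet in 1 complex: FAS and CFLAR, whose brightest probe sets were higher in HFM at both times, and FADD and CASP8, which were lower at both times. Each run is the 250 bases before the most upstream start that RefSeq lists, on GRCh38.p14, all on the + strand, 5′ to 3′. They lie at chr10:88990548-88990797 for FAS, chr11:70203046-70203295 for FADD, chr2:201233213-201233462 for CASP8 and chr2:201118466-201118715 for CFLAR, where RefSeq lists 3, 1, 3 and 4 starts. Capitals mark matches to any of 4 motifs, searched on both strands: the GC box (letters GGGCGG), the CCAAT box (its own letters), the TATA box (letters TATAAA) and the element bound by C/EBP and CHOP dimers (letters TGCAAT).
FAS: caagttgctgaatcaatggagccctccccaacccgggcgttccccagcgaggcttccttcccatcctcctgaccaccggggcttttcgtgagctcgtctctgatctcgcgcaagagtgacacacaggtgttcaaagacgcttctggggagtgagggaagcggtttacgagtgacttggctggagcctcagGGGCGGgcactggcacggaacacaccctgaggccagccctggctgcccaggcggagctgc
FADD: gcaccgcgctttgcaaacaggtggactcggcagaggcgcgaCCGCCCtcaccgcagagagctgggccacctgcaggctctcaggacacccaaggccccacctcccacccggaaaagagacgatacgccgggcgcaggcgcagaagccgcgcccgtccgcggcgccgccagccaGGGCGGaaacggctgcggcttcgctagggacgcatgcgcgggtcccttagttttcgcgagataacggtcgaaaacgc
CASP8: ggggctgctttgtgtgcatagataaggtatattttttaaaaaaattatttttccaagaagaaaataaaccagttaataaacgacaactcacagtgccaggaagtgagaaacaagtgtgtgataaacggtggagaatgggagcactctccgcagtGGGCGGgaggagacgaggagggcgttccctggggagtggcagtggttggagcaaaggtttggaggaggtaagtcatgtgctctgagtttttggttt
CFLAR: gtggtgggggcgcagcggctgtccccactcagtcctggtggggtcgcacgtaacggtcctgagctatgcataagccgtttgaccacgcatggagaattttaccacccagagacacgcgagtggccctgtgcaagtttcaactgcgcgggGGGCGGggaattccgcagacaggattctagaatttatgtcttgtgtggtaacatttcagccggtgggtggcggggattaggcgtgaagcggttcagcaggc
FADD held 2 GC boxes and FAS, CASP8 and CFLAR 1 each, a motif found in 42.6% of all 35116 windows of the same length. None of these 4 windows held a CCAAT box, a TATA box or the C/EBP element, which 32.0%, 10.7% and 7.0% of all windows held. The share of G and C was 62.8% for FAS, 68.8% for FADD, 45.6% for CASP8 and 58.8% for CFLAR, against a median of 58.0% over all windows. A promoter entry was found for 7 of the 10 genes. Of the other 3 of these, TNFRSF21 held 1 GC box and 1 C/EBP element, TNFRSF1A held 1 CCAAT box and TNFSF10 held 1 TATA box. CFLAR, CASP10 and CASP8 are consecutive genes in the RefSeq annotation, and so are TNFRSF10B, TNFRSF10C, TNFRSF10D and TNFRSF10A.

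In HFM at 12 hours, the receptors FAS and TNFRSF21 and the inhibitor CFLAR rose, whereas FADD, CASP8, TNFRSF1A, TNFRSF10A and TNFRSF10B fell. Thus 3 of the 9 tested genes were called higher and 5 lower at a Benjamini-Hochberg adjusted p under 0.05 in limma, where 28.9% of all tested genes were higher and 33.0% lower. The median change of the 9 genes was -0.13 on the log2 scale and that of all tested genes -0.07. The arrays of both media did not overlap for 9 of the 9 genes, nor for 63.6% of all tested genes. After 24 hours FAS, TNFRSF21, TNFRSF10B and CFLAR were higher and FADD, CASP8, TNFRSF1A and TNFRSF10A lower, which made 4 higher and 4 lower against 20.6% and 37.5% of all tested genes. The median was 0.04 against -0.08 for all genes, and arrays did not overlap for 8 of the 9, nor for 68.7% of all tested genes. With each array centred on the median of its tested genes, the median of all genes at 24 hours moved from -0.08 to 0.10 and the split from 2700 higher and 4923 lower to 4852 higher and 3434 lower. With the quantile normalisation repeated it was 3909 higher and 4056 lower. The 8 genes of the set kept their direction and call in both scalings at both times.

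**Figure D1:**
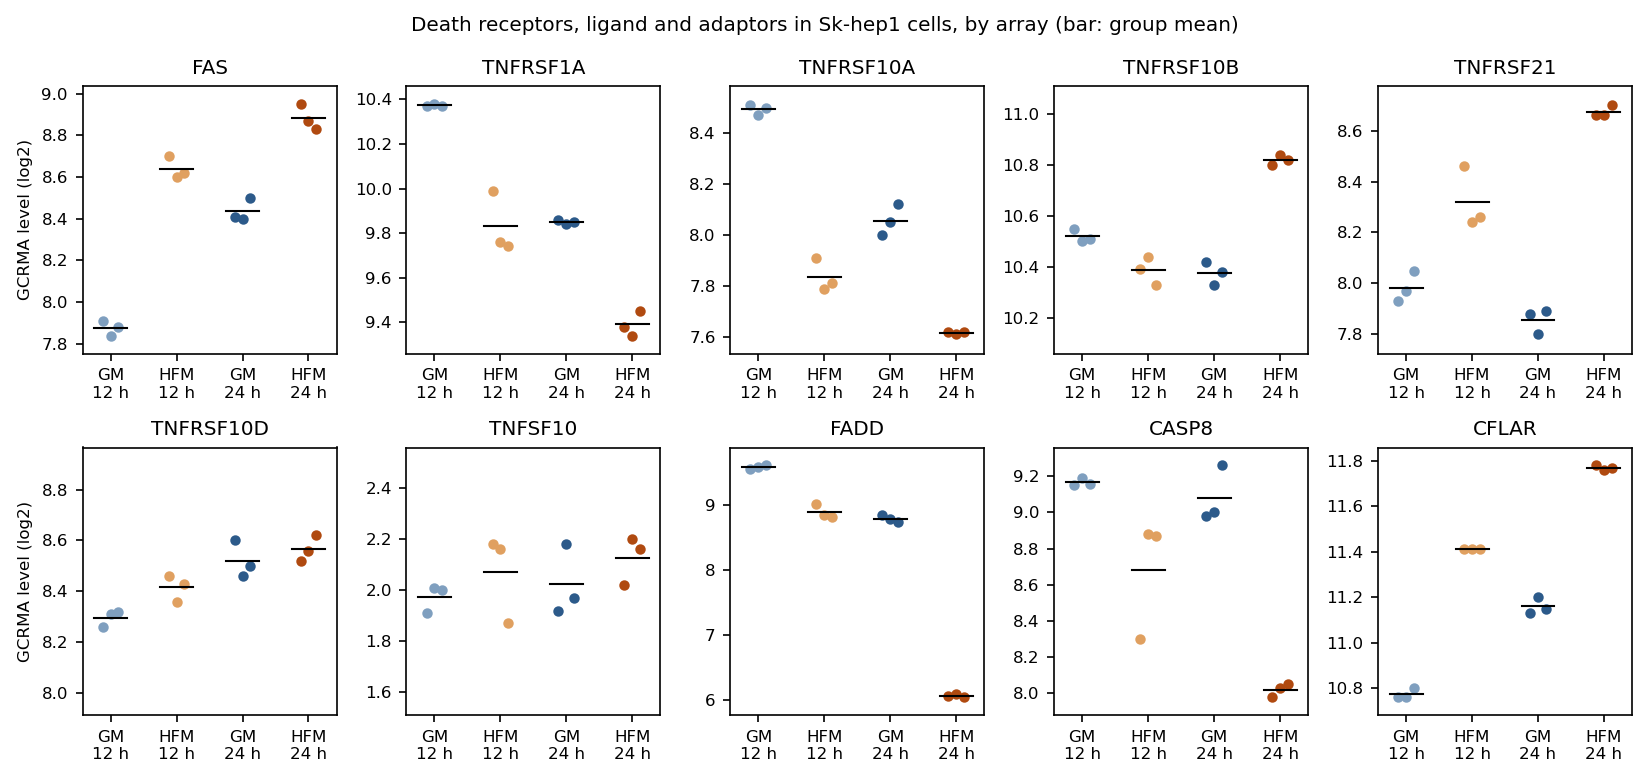
GCRMA level (log2) of each of the 10 genes at its brightest probe set, with 1 point per array in the 4 medium and time groups and a bar at the group mean; the vertical axes differ between genes. FADD in HFM at 24 hours (6.04 to 6.08) lay far below its other groups (8.74 to 9.61), and TNFSF10 stayed between 1.87 and 2.20.

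FADD, the adaptor that links the receptors to caspase-8, had the largest change of the 9 tested genes at 24 hours. Its levels were 9.55, 9.59 and 9.61 in GM and 9.01, 8.85 and 8.82 in HFM at 12 hours, and 8.84, 8.78 and 8.74 in GM and 6.06, 6.08 and 6.04 in HFM at 24 hours. The 3 HFM arrays of 24 hours stood apart from all others, while HFM at 12 hours and GM at 24 hours overlapped. FADD fell in HFM by 0.69 ± 0.06 on the log2 scale (SE, n = 3 per group, adjusted p = 1.43e-06) at 12 hours and by 2.73 ± 0.06 (adjusted p = 2.47e-11) at 24 hours, which is 6.63-fold lower. The HFM effect at 24 hours was thus more negative than at 12 hours, by -2.03 ± 0.08 (adjusted p = 8.86e-09). FADD has 1 probe set on the array, so no other probe set could serve as a check. The ACTB 3′ minus 5′ difference was highest on the same 3 arrays, and its part in the FADD value was not tested.

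CASP8, the initiator caspase that FADD recruits, was lower in HFM as well. Its brightest probe set read 9.15, 9.19 and 9.16 in GM and 8.30, 8.88 and 8.87 in HFM at 12 hours. At 24 hours it read 8.98, 9.0 and 9.26 in GM and 7.98, 8.03 and 8.05 in HFM. HFM lay below GM on every array at both times, with HFM 12-hour replicate 1 the lowest of its group, and both GM groups overlapped. CASP8 fell by 0.49 ± 0.13 (adjusted p = 0.00788) at 12 hours and by 1.06 ± 0.13 (adjusted p = 2.62e-05), or 2.08-fold, at 24 hours. Without HFM 12-hour replicate 1, the 12-hour change was -0.29 and called. With a term that separates the high from the low hybridisation control class, the change was -0.87. That fit sets HFM 12-hour replicate 1 (8.30) alone against the GM arrays of 12 hours. The fall was thus seen with and without this array, but its size depended on it. A second probe set changed by -0.21 ± 0.15 at 12 hours (adjusted p = 0.244) and fell by 1.46 ± 0.15 at 24 hours (adjusted p = 3.54e-06), and the remaining one was below the filter. The change in HFM differed between times by -0.57 ± 0.19 (adjusted p = 0.0237). This call was lost without HFM 12-hour replicate 2 (-0.47), HFM 12-hour replicate 3 (-0.48) or GM 24-hour replicate 3 (-0.48). It was also lost with centred arrays (-0.37), with the repeated quantile normalisation (-0.39) and with the term for the hybridisation control class (-0.19).

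CFLAR, which competes with caspase-8 for FADD, had the most probe sets, 14, and they did not move together. At the brightest one the levels were 10.76, 10.76 and 10.80 in GM and 11.41 on all 3 arrays of HFM at 12 hours, then 11.13, 11.20 and 11.15 in GM and 11.78, 11.76 and 11.77 in HFM at 24 hours. No groups overlapped, in the order GM 12 hours, GM 24 hours, HFM 12 hours, HFM 24 hours. That probe set rose by 0.64 ± 0.04 (adjusted p = 2.94e-07) at 12 hours and by 0.61 ± 0.04 (adjusted p = 1.56e-07) at 24 hours, and the difference between times was -0.03 ± 0.06 (adjusted p = 0.709).

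Of the 14 CFLAR probe sets, 7 were higher in HFM at 12 hours, 0 lower, 6 not called and 1 not tested. At 24 hours 6 were higher, 6 lower, 1 not called and 1 not tested. In the difference between times 2 were higher, 7 lower, 4 not called and 1 not tested. The mean over all CFLAR probe sets differed between times by -0.29 and was called (limma, adjusted p = 0.0126), unlike the brightest one. The largest fall at 24 hours was at 211317_s_at (-0.98 ± 0.11), which had changed by -0.05 ± 0.11 at 12 hours. 211316_x_at was higher at 12 hours (0.31 ± 0.09) and lower at 24 hours (-0.30 ± 0.09). So was 235427_at (0.48 ± 0.17 and -0.79 ± 0.17), but its group means, from 3.44 to 4.45, lay near the filter. It passed mainly through the GM arrays of 24 hours (4.30, 4.54 and 4.51). Outside them 235427_at reached log2 4 on HFM 12-hour replicate 1 alone (4.22), so its fall at 24 hours carries no weight. In the other direction, 237367_x_at rose by 0.56 ± 0.09 and by 1.32 ± 0.09 (adjusted p = 1.47e-07). 217654_at changed by 0.11 ± 0.10 at 12 hours and by 1.11 ± 0.10 at 24 hours. It reached log2 4 only on the 3 HFM arrays of 24 hours (4.38, 4.51 and 4.65). It thus passed the filter only through the group where it is high, and its call at 24 hours carries no weight. The mean over all CFLAR probe sets at 24 hours changed by 0.08 and was not called, and 239629_at, the brightest one not of the _s_ or _x_ type, rose by 0.20 ± 0.08 (adjusted p = 0.0495). CFLAR is known for several splice forms, and probe sets ending in _x_at hold probes that can match other transcripts. Which form each probe set reads was not analysed here.

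**Figure D2:**
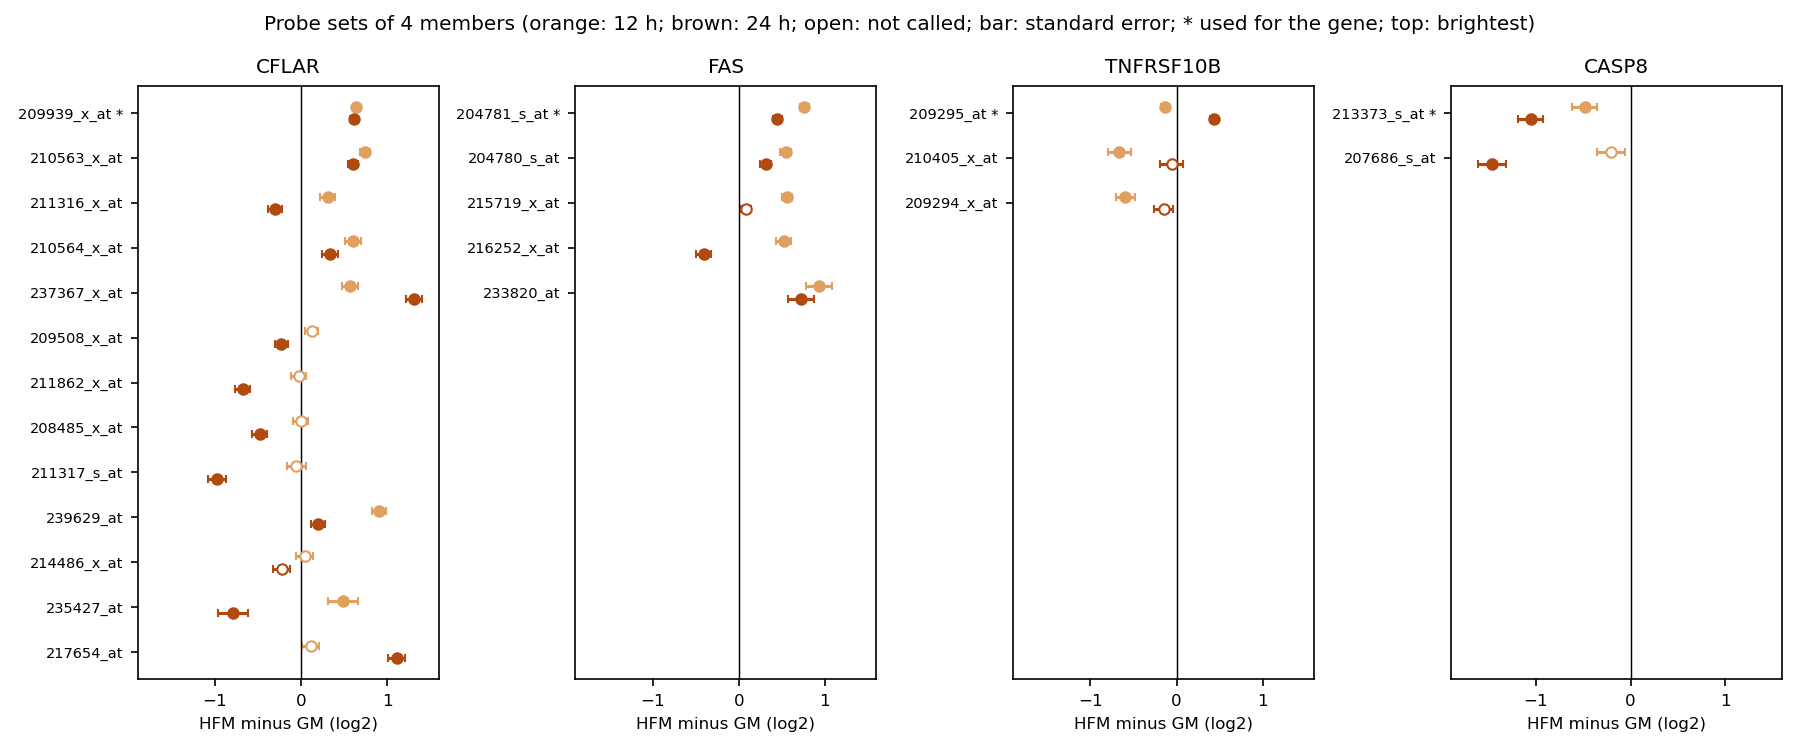
HFM minus GM (log2) at 12 hours (orange) and 24 hours (brown) for each tested probe set of CFLAR, FAS, TNFRSF10B and CASP8, brightest at the top, with standard errors and open points where not called. CFLAR spread at 24 hours from -0.98 to 1.32, and FAS had 1 probe set below 0 at 24 hours (-0.41).

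FAS, the receptor of FAS ligand, had levels of 7.91, 7.84 and 7.88 in GM and 8.70, 8.60 and 8.62 in HFM at 12 hours. At 24 hours they were 8.41, 8.40 and 8.50 in GM and 8.95, 8.87 and 8.83 in HFM. No groups overlapped, in the order GM 12 hours, GM 24 hours, HFM 12 hours, HFM 24 hours. FAS rose in HFM by 0.76 ± 0.05 (adjusted p = 4.56e-07), or 1.69-fold, at 12 hours and by 0.45 ± 0.05 (adjusted p = 1.75e-05) at 24 hours. The effect at 24 hours was smaller by -0.31 ± 0.08 (adjusted p = 0.00445), but with centred arrays this difference was -0.11 and not called. All 5 FAS probe sets were higher at 12 hours, with changes from 0.52 to 0.94. The largest, 0.94 ± 0.15, was at 233820_at, which lay near the filter with group means between 4.02 and 4.96. At 24 hours 3 were higher, 215719_x_at changed by 0.09 ± 0.06 (adjusted p = 0.21) and 216252_x_at fell by 0.41 ± 0.09 (adjusted p = 0.00179). The ligand of FAS, FASLG, was below the filter, with group means between 2.65 and 2.82.

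TNFRSF10A and TNFRSF10B encode the TRAIL receptors DR4 and DR5, both of which carry death domains. TNFRSF10A read 8.51, 8.47 and 8.50 in GM and 7.91, 7.79 and 7.81 in HFM at 12 hours, then 8.0, 8.05 and 8.12 in GM and 7.62, 7.61 and 7.62 in HFM at 24 hours. No groups overlapped, from HFM 24 hours at the bottom through HFM 12 hours and GM 24 hours to GM 12 hours. TNFRSF10A fell by 0.66 ± 0.05 (adjusted p = 9e-07) at 12 hours and by 0.44 ± 0.05 (adjusted p = 1.16e-05) at 24 hours, and its 3 probe sets were all lower at 12 hours and 2 of them at 24 hours. The difference between times, 0.21 ± 0.07 (adjusted p = 0.0251), was lost without GM 12-hour replicate 1 (0.21) or 3 (0.21), HFM 12-hour replicate 2 (0.19) or 3 (0.20) or GM 24-hour replicate 1 (0.19) or 2 (0.21). It was also lost without the filter, with a term for the hybridisation controls (0.14) and as the mean of its probe sets (0.10).

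TNFRSF10B went from lower at 12 hours to higher at 24 hours. It read 10.55, 10.50 and 10.51 in GM and 10.39, 10.44 and 10.33 in HFM at 12 hours, then 10.42, 10.33 and 10.38 in GM and 10.80, 10.84 and 10.82 in HFM at 24 hours. HFM at 24 hours was above every other array, and GM at 24 hours overlapped with HFM at 12 hours. The 12-hour change of -0.13 ± 0.05 (adjusted p = 0.0263) was small and was no longer called without GM 12-hour replicate 1 (-0.12), 2 (-0.14) or 3 (-0.14), without HFM 12-hour replicate 3 (-0.11), without the filter, in a fit of the compared groups alone or with a term for the hybridisation controls. At 24 hours the rise was 0.44 ± 0.05 (adjusted p = 6.35e-06), and the effects differed between times by 0.58 ± 0.07 (adjusted p = 2.08e-05). The other tested probe sets of TNFRSF10B, 210405_x_at and 209294_x_at, fell at 12 hours by 0.66 ± 0.13 and 0.59 ± 0.11, and at 24 hours they changed by -0.06 ± 0.13 and -0.15 ± 0.11 without being called. All 3 were higher in the difference between times, but the rise at 24 hours was seen at the brightest probe set alone, and the mean over the probe sets changed by 0.02 at 24 hours.

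TNFRSF10D, the TRAIL decoy receptor with a truncated death domain, read 8.26, 8.31 and 8.32 in GM and 8.46, 8.36 and 8.43 in HFM at 12 hours. At 24 hours it read 8.60, 8.46 and 8.50 in GM and 8.52, 8.56 and 8.62 in HFM. The media did not overlap at 12 hours and overlapped at 24 hours, and the changes were 0.12 ± 0.05 (adjusted p = 0.082) and 0.04 ± 0.05 (adjusted p = 0.534), neither of them called. With centred arrays (0.22) or the repeated quantile normalisation (0.13), TNFRSF10D was called higher at 24 hours. Its dimmer probe set, 210654_at, was lower in HFM at both times, by -0.44 ± 0.09 (adjusted p = 0.00165) and -0.25 ± 0.09 (adjusted p = 0.0343). The other TRAIL decoy, TNFRSF10C, was measured near the filter, with group means between 3.93 and 4.04 and changes of 0.01 and -0.09 that were not called. TRAIL itself, TNFSF10, had 3 probe sets with values between 1.75 and 2.28 on every array, below the filter of log2 4, and was not tested.

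TNFRSF1A, the main receptor of tumour necrosis factor, signals to NF-κB before it can signal to FADD. It has 1 probe set, with levels of 10.37, 10.38 and 10.37 in GM and 9.99, 9.76 and 9.74 in HFM at 12 hours, and 9.86, 9.84 and 9.85 in GM and 9.38, 9.34 and 9.45 in HFM at 24 hours. GM at 12 hours was highest and HFM at 24 hours lowest, and the remaining groups overlapped. TNFRSF1A fell by 0.54 ± 0.06 (adjusted p = 2.43e-05) and by 0.45 ± 0.06 (adjusted p = 6.6e-05), and the difference between times was 0.09 ± 0.09 (adjusted p = 0.44). Without HFM 12-hour replicate 1 that difference was 0.17, and with centred arrays 0.29, and both were called. TNF was below the filter, with group means between 2.57 and 2.82.

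TNFRSF21 (DR6), a death-domain receptor for which no classical death ligand is established, read 7.93, 7.97 and 8.05 in GM and 8.46, 8.24 and 8.26 in HFM at 12 hours. At 24 hours it read 7.88, 7.80 and 7.89 in GM and 8.66, 8.66 and 8.70 in HFM. Every HFM array lay above every GM array. TNFRSF21 rose by 0.34 ± 0.06 (adjusted p = 0.000801) and by 0.82 ± 0.06 (adjusted p = 4.39e-07), or 1.76-fold at 24 hours, and the effect was larger at 24 hours by 0.48 ± 0.09 (adjusted p = 0.0008). A second probe set changed by 0.23 ± 0.10 (adjusted p = 0.0682) and rose by 0.66 ± 0.10 (adjusted p = 0.000129).

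**Figure D3:**
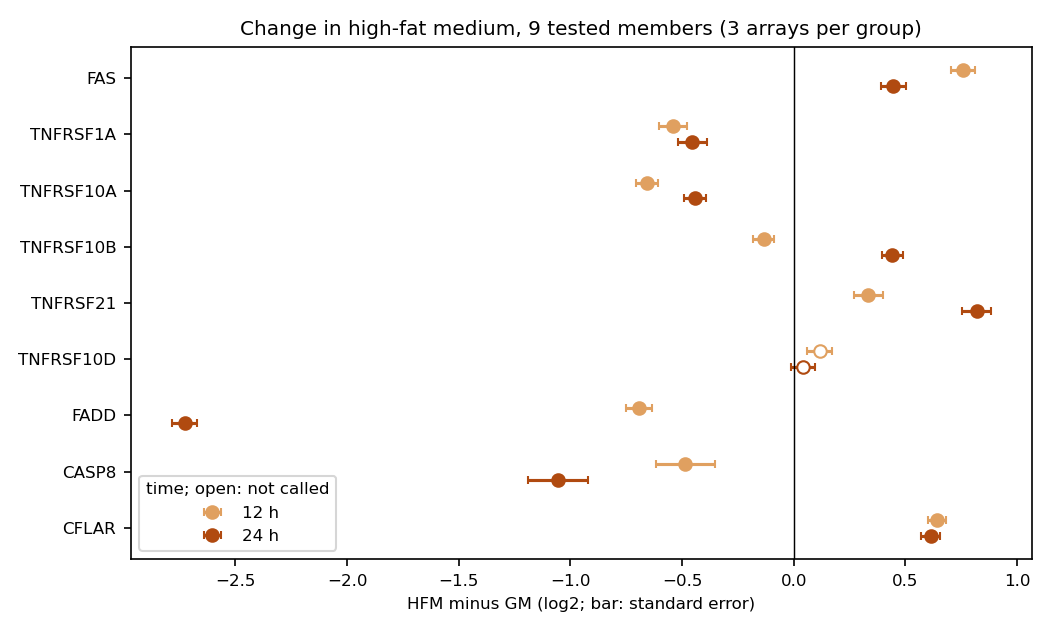
HFM minus GM (log2) for the 9 tested genes at 12 hours (orange) and 24 hours (brown), with standard errors from limma and open points where not called. FADD at 24 hours (-2.73) lies outside the range of the other changes (-1.06 to 0.82), and TNFRSF10B is on either side of 0.

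At the brightest probe sets, the HFM effect differed between times for 6 of the 9 genes. It was more positive at 24 hours for TNFRSF10A, TNFRSF10B and TNFRSF21 and more negative for FAS, FADD and CASP8. For TNFRSF10A this was a smaller fall and for FAS a smaller rise. Of all tested genes 19.4% were higher and 33.4% lower in this difference, and the medians were -0.03 for the 9 genes and -0.04 for all. With centred arrays the split over all genes went from 2551 higher and 4380 lower to 5068 and 3134, and with the repeated quantile normalisation to 3759 and 3618. Over all 32 tested probe sets of the 9 tested genes, 13 were higher and 10 lower at 12 hours, where 33.3% and 25.7% of all tested probe sets were. Of these 13, 7 were of CFLAR and 5 of FAS, so the probe sets are not separate genes. At 24 hours 12 were higher and 14 lower, against 24.8% and 33.4%. The 12 include CFLAR 217654_at and the 14 include CFLAR 235427_at, whose calls at 24 hours carry no weight because of the filter.

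In GM alone, 7 of the 9 genes changed with incubation time, in a comparison that shares arrays with those above. From 12 to 24 hours in GM, FAS (0.56 ± 0.05, adjusted p = 3.01e-06), CFLAR (0.39 ± 0.04, adjusted p = 8.47e-06) and TNFRSF10D (0.22 ± 0.05, adjusted p = 0.00312) rose. The dimmer TNFRSF10D probe set, 210654_at, was lower instead (-0.43 ± 0.09, adjusted p = 0.00166). FADD (-0.80 ± 0.06, adjusted p = 3.21e-07), TNFRSF1A (-0.52 ± 0.06), TNFRSF10A (-0.44 ± 0.05) and TNFRSF10B (-0.14 ± 0.05, adjusted p = 0.0162) fell. These were 3 higher and 4 lower of 9, where 29.4% of all tested genes were higher and 40.5% lower, with medians of -0.13 and -0.12. CASP8 (-0.09 ± 0.13, adjusted p = 0.56) and TNFRSF21 (-0.13 ± 0.06, adjusted p = 0.0927) were not called. In GM, all arrays of 12 hours were of the high hybridisation control class and all of 24 hours of the low class. Within GM, time and class cannot be told apart. The size of a term for this class is thus set by HFM 12-hour replicate 1 against the other HFM arrays of 12 hours. With that term the change of CASP8 was -0.67. As the mean of its probe sets, the change of CASP8 was -0.18 and called. The fall of TNFRSF10B was not called with that term, nor without GM 12-hour replicate 1 (-0.13) or GM 24-hour replicate 2 (-0.12). TNFRSF21 was called without HFM 12-hour replicate 1 (-0.13), with the repeated quantile normalisation (-0.16) and in a fit of the compared groups alone (-0.13).

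In HFM, 5 of 9 genes were higher and 4 lower at 24 than at 12 hours, against 20.1% and 43.1% of all tested genes, with medians of 0.15 and -0.12. FADD fell by 2.83 ± 0.06 (adjusted p = 2.84e-11), CASP8 by 0.66 ± 0.13 (adjusted p = 0.000932), TNFRSF1A by 0.44 ± 0.06 and TNFRSF10A by 0.22 ± 0.05. TNFRSF10B (0.43 ± 0.05), CFLAR (0.36 ± 0.04), TNFRSF21 (0.36 ± 0.06), FAS (0.25 ± 0.05) and TNFRSF10D (0.15 ± 0.05, adjusted p = 0.0298) rose. TNFRSF10A was at -0.01 and not called both with centred arrays and with the repeated quantile normalisation, and centring took the split over all genes from 2637 higher and 5653 lower to 5133 and 3790. With the repeated quantile normalisation the split was 4047 and 4395. The rise of TNFRSF10D was lost without HFM 12-hour replicate 2 (0.12) or HFM 24-hour replicate 2 (0.15) or 3 (0.12), without the filter and in a fit of the compared groups alone. The dimmer TNFRSF10D probe set, 210654_at, was lower at 24 hours (-0.24 ± 0.09, adjusted p = 0.0424). Of the CFLAR probe sets 4 were higher, 6 lower, 3 not called and 1 not tested. The 4 include 217654_at, which passed the filter only through the HFM arrays of 24 hours. Of the FAS probe sets 2 were higher, 1 lower and 2 not called. For FAS the mean over its probe sets changed by -0.018, and for CFLAR by -0.0028.

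The rest of the pathway was read from 5 lists of genes. Of all tested genes 28.9% were higher and 33.0% lower in HFM at 12 hours, and 20.6% and 37.5% at 24 hours. With centred arrays the split over all genes at 24 hours turned to 4852 higher and 3434 lower. The counts of the lists were not taken under that scaling. Of 14 other receptors, decoys and ligands, 13 were analysed and 6 passed the filter, of which 3 were lower and 0 higher at 12 hours (median -0.23) and 1 lower and 0 higher at 24 hours (median 0.01). TNFRSF12A, the TWEAK receptor, fell by 0.59 and 0.67 (adjusted p = 1.05e-05 and 2.11e-06). The ectodysplasin receptors EDAR (-0.43, adjusted p = 0.00545) and EDA2R (-0.28, adjusted p = 0.0386) fell at 12 hours, and at 24 hours they changed by 0.04 and 0.14 without being called. EDA2R was measured near the filter, with group means between 3.72 and 4.03.

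Among adaptors, ubiquitin ligases and deubiquitinases of the receptor complexes, 19 of 23 were tested. At 12 hours 11 were higher and 6 lower (median 0.30, against -0.07 for all genes), and at 24 hours 4 were higher and 10 lower (median -0.19, against -0.08). TRAF5, an adaptor of TNF receptors, rose by 0.92 and 0.79 (adjusted p = 4.5e-06 and 8.56e-06), and CYLD, which removes ubiquitin chains from the receptor complex, by 0.69 and 1.30 (adjusted p = 7.1e-06 and 1.91e-08). MAP3K7, the kinase TAK1, rose by 0.67 at 12 hours (adjusted p = 3.1e-06) and was lower at 24 hours by -0.15 (adjusted p = 0.0464). FAIM, an inhibitor of FAS-induced death, fell by 0.55 at 12 hours and by 1.52 at 24 hours (adjusted p = 3.21e-07). TRAF3 changed by -0.23 at 12 hours (adjusted p = 0.0739) and fell by 0.99 at 24 hours (adjusted p = 5.06e-06).

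Of 15 caspases and execution genes 13 were tested. At 12 hours 2 were higher and 6 lower (median -0.18), against 28.9% and 33.0% of all tested genes. At 24 hours 1 was higher and 7 lower (median -0.28), against 20.6% and 37.5%. APAF1, the scaffold of the apoptosome, rose by 0.79 at 12 hours (adjusted p = 4.1e-05), and at 24 hours its change was 0.19 (adjusted p = 0.126). CASP2, an initiator caspase, fell by 0.51 and HTRA2, a mitochondrial protease, by 0.43 at 12 hours. At 24 hours the nuclease DFFB fell by 0.74 (adjusted p = 2.59e-05), the executioner CASP6 by 0.70 and CASP10 by 0.62. CASP10, the initiator caspase next to CASP8 in the genome, had changed by -0.02 at 12 hours (adjusted p = 0.901).

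Of the 6 necroptosis genes 4 were tested, 2 higher and 2 lower at 12 hours (median 0.08) and 1 higher and 3 lower at 24 hours (median -0.26). MLKL, which permeabilises the membrane in this form of death, fell by 0.51 and 0.79 (adjusted p = 0.00179 and 5.61e-05). PELI1, a ubiquitin ligase, rose by 0.55 and 0.42. The phosphatase PPM1B was higher by 0.62 at 12 hours and lower by -0.14 at 24 hours, and PGAM5, a mitochondrial phosphatase, fell by 0.37 at 24 hours. RIPK3, the kinase that activates MLKL, did not pass the filter.

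Among 7 tested regulators of receptor transcription, 3 were higher and 2 lower at 12 hours (median -0.05) and 3 higher and 3 lower at 24 hours (median -0.04). DDIT3 (CHOP), a factor known to act on the promoter of TNFRSF10B under stress of the endoplasmic reticulum, rose by 1.12 at 12 hours (adjusted p = 1.12e-06) and by 3.22 at 24 hours (adjusted p = 1.41e-10). Its group means were 7.80 ± 0.08 (SD, n = 3) and 8.92 ± 0.18 at 12 hours and 8.28 ± 0.11 and 11.49 ± 0.07 at 24 hours. SP1, which binds GC boxes, rose by 0.35 and 0.44, and FOXO3 by 0.30 and 0.45 (adjusted p = 1.22e-05 at 24 hours). TRIB3, a pseudokinase induced by DDIT3, fell by 0.53 at 12 hours and 0.21 at 24 hours.

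**Figure D4:**
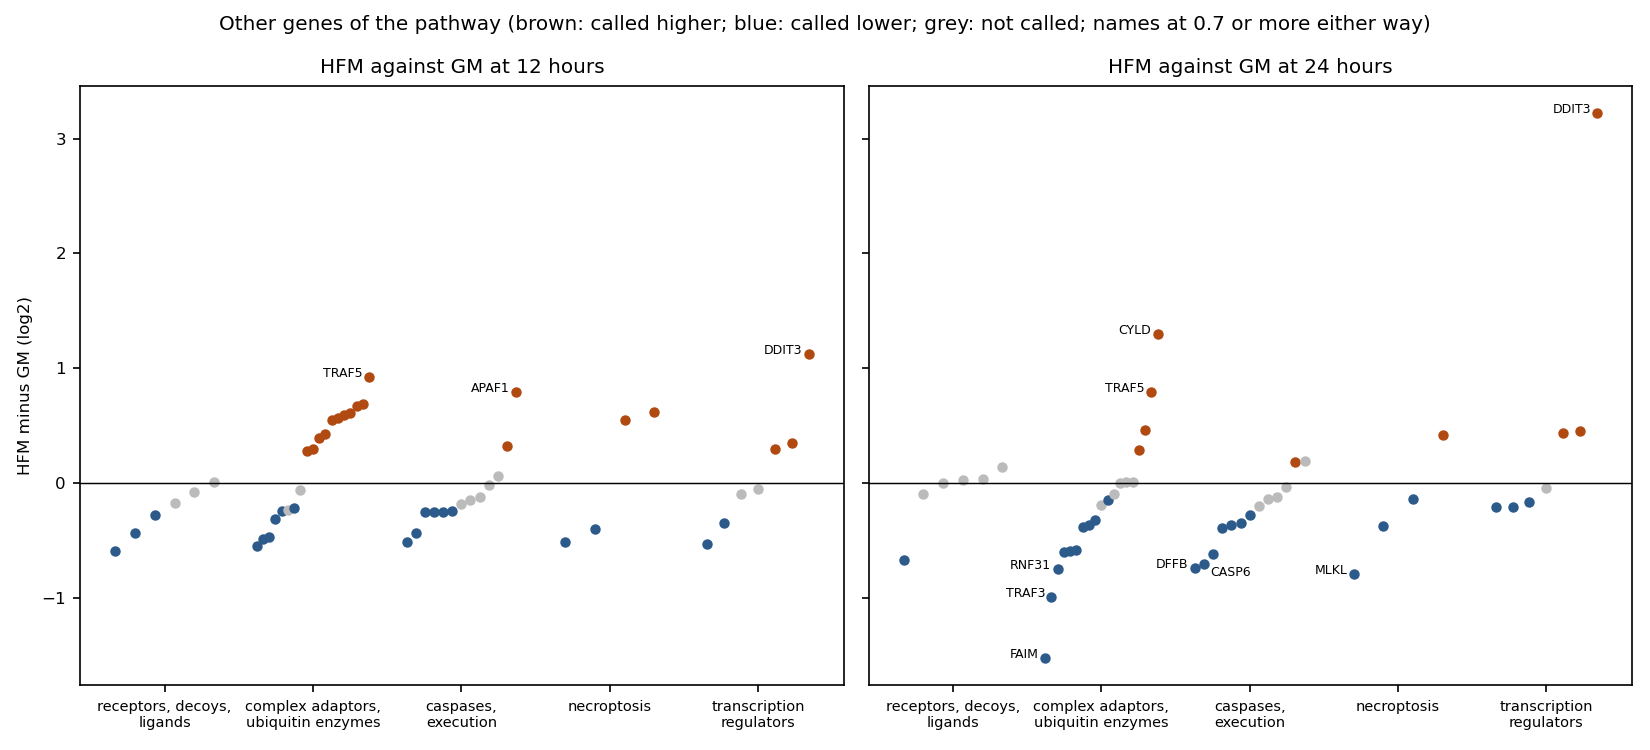
HFM minus GM (log2) at 12 hours (left) and 24 hours (right) for each tested gene of the 5 other lists of the pathway, sorted within each list; brown and blue points were called higher and lower, grey points not called. DDIT3 reached 3.22 and FAIM -1.52 at 24 hours. More of the complex adaptors and ubiquitin enzymes were below 0 at 24 than at 12 hours. Of all tested genes 33.0% were called lower at 12 hours and 37.5% at 24 hours.

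The genes whose levels over the 12 arrays were most like FAS were GRAMD2B (Pearson r = 0.993), LIMCH1 (0.992), a regulator of actomyosin, and FZD3 (0.991), a WNT receptor. FZD3, for example, had group means of 4.64 and 5.63 in GM and HFM at 12 hours and of 5.42 and 6.09 at 24 hours, the order seen in FAS. Most like TNFRSF10B were the endocytic receptor LRP1 (0.981), the heparan sulfate enzyme NDST1 (0.979) and TSC22D3 (0.979), a transcription regulator induced by glucocorticoids. NDST1 had group means of 7.67 and 7.38 at 12 hours and of 7.27 and 8.52 at 24 hours. The 12 arrays fall into 4 groups, so these coefficients describe the pattern of the group means more than 12 separate points.

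The marker lists of cell types moved with the groups as well. The mean level of the 10 endothelial markers lay between 4.38 and 4.40 in GM and 3.93 and 3.97 in HFM at 12 hours, and between 4.01 and 4.06 in GM and 3.81 and 3.96 in HFM at 24 hours. Of the 5 that were tested, 4 were lower in HFM at 12 hours and 3 at 24 hours. For the 9 leukocyte markers, 3 of which passed the filter, the mean went from 4.06 to 4.11 in GM to 3.77 to 3.86 in HFM at 12 hours and from 3.70 to 3.74 in GM to 3.61 to 3.71 in HFM at 24 hours. Hepatocyte markers were 1 higher and 1 lower of 4 tested at 12 hours and 2 higher at 24 hours, epithelial markers 3 lower of 4 at both times, and mesenchymal markers 1 higher and 3 lower of 6 at 12 hours and 1 higher and 2 lower at 24 hours. Beside these counts, 28.9% of all tested genes were higher and 33.0% lower at 12 hours, and 20.6% and 37.5% at 24 hours. The part of the markers in the changes of FAS, FADD and the other genes was not tested.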

How the data were processed

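Expression was measured in 12 arrays, 3 for each of GM and HFM at 12 and 24 hours. The deposited values are log2 levels that the authors made with GCRMA, per the submitters' processing notes; the sources used here do not give its version. Of the probe sets, 41097 had 1 symbol in the platform annotation, 1801 several and 11777 none, and only the first were named. Identifiers of 41043 matched the reference, and 0 symbols changed. For each gene the probe set of highest mean was used. The test was limited to genes that reached log2 4 on 3 arrays or more. A model with 4 group means was fitted to all 12 arrays (limma 3.58.1, R 4.3.3) by lmFit and eBayes and tested on simulated data. Calls had a Benjamini-Hochberg adjusted p under 0.05 over all tested genes, and errors beside changes are standard errors. Values for the other probe sets come from the same model fitted to all probe sets, with the same filter.

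The 10 genes and the other lists were chosen with earlier results of these data known. All 10 were named, with DDIT3, up to 3 called genes of each other list at each time with the largest changes, and the 3 genes most correlated with FAS and with TNFRSF10B. TNFRSF10C, FASLG, TNF, RIPK3, the markers and the other time of a named gene are given as context. 1 further gene of this rule is not analysed here. The main model used no pairing by replicate number. Deviations of arrays with the same number correlated between -0.17 and 0.25, with 5 of 12 pairs over 0.1. With 3 arrays per group these values cannot settle whether the arrays were paired. Alternatives were no filter or log2 6, the mean over probe sets, leaving out probe sets of the _s_ and _x_ types, all probe sets, centred arrays, a repeated quantile normalisation, robust and trended eBayes, the compared groups alone, a replicate block, a term for the hybridisation control class, leaving out each array and a 2-fold minimum. Promoters were taken from RefSeq with Python 3.11.15, and figures drawn with matplotlib 3.10.9.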

Additional observations from a re-analysis of the deposited data

Results flagged for a closer look

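The change in HFM differed between 12 and 24 hours for 6 of the 9 tested genes of the set. This is the test of the difference itself in limma, with Benjamini-Hochberg adjustment over all tested genes. In the same test 19.4% of all tested genes were higher and 33.4% lower. At 24 minus 12 hours the difference on the log2 scale was -2.03 for FADD, -0.57 for CASP8 and -0.31 for FAS. It was 0.58 for TNFRSF10B, 0.48 for TNFRSF21 and 0.21 for TNFRSF10A. With 1 array left out at a time, the call of TNFRSF10A held in 6 of 12 fits and that of CASP8 in 9. The call of FAS was lost with centred arrays (-0.11). TNFRSF10B was the one called lower at 12 hours and higher at 24 hours, and its 12-hour call held in 8 of 12 such fits. The ACTB 3′ minus 5′ difference was higher on the HFM arrays of 24 hours, and its part in these differences was not tested.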

How the results depend on the processing

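At 12 and 24 hours FAS, FADD, TNFRSF10A, TNFRSF1A, TNFRSF21 and CASP8 kept their direction and call in every alternative that gave a value but the 2-fold minimum, which FADD and CASP8 alone passed at 24 hours. With that minimum the genes called were 286 at 12 hours, 983 at 24 hours, 561 for time in GM, 1004 for time in HFM and 1045 for the difference between times, and those of the set 0, 2, 0, 1 and 1. Tested by probe set, the calls were 17552, 17317, 19538, 18566 and 15508, since more features entered. A replicate block gave 8267, 7757, 9247, 8367 and 7073 genes, against 8123, 7623, 9182, 8290 and 6931, and 8, 8, 7, 9 and 6 of the set, as without it; it changed no call of the set, and 0 of 12 arrays correlated best with its own number in every other group.

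As the mean of their probe sets, TNFRSF10D turned to -0.16 at 12 hours, -0.10 for time in GM and -0.044 for time in HFM. On the same reading FAS (-0.018) and CFLAR (-0.0028) turned for time in HFM. With centred arrays the difference between times of CFLAR turned to 0.17. The cause was not tested. Without probe sets of the _s_ and _x_ types, CASP8 gave no value, since its remaining probe set did not pass the filter. FAS for time was then 0.22 in GM and 0.0009 in HFM and its difference between times -0.22, none of them called, and CFLAR differed between times by -0.71 (called). The hybridisation term rests the 12-hour comparison of the media on 1 HFM array, and with it the split at 12 hours went from 3789 higher and 4334 lower to 4409 and 3570. Intensities near the filter limit TNFRSF10C and 210654_at, and TNFSF10 lies below it.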

Other observations

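Among the HFM arrays of 12 hours, replicate 1 lay apart from the other 2 in several genes of the set. It had the highest level of its group for FADD (9.01, against 8.85 and 8.82), TNFRSF1A (9.99, against 9.76 and 9.74) and TNFRSF21 (8.46, against 8.24 and 8.26) and the lowest for CASP8 (8.30, against 8.88 and 8.87). For FADD and TNFRSF1A the array lay nearer to GM than the other 2 did, and for TNFRSF21 and CASP8 farther from it. CFLAR read 11.41 on all 3 arrays. The hybridisation controls of replicate 1 averaged 9.81, against 9.60 and 9.65 on the other 2 and 9.84 to 9.88 on the GM arrays of 12 hours.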
